A study of Mus musculus with 24 samples.

Results

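Insulin signaling and glucose transport were followed through 9 genes in differentiating 3T3-L1 cells: the ligand gene *Igf1*, the receptor genes *Insr* and *Igf1r*, the adaptor genes *Irs1* and *Irs2*, the PI 3-kinase subunit gene *Pik3r1*, the kinase gene *Akt2*, and the glucose transporter genes *Slc2a1* and *Slc2a4*. They were found by symbol among the 26995 gene symbols of the deposited tables, and all 9 were present. Each gene is represented by the 3′UTR entry with its highest mean read count over the 24 libraries, so that 9 of 91830 entries were used. The counted entries and their coordinates are given with each gene below, on the mouse build mm10.

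3T3-L1 is a single mouse line of pre-adipocytes that becomes fat-storing after hormonal induction. The cells received DMSO, the vehicle, or 0.5 μM ML-792, which blocks the SUMO-activating enzyme and thereby the attachment of the small protein SUMO to other proteins. They were harvested at days −2, 1, 3 and 7 relative to induction, with replicates A, B and C for each of the 8 conditions, which the study's methods call biological replicates. All cells, DMSO controls included, received 100 μM 4-thiouridine for 45 min before harvest. The methods have the cells grown to confluence before induction, and do not state confluence for the harvest of day −2. From induction the medium of both arms held 10 μg/ml insulin, with 0.5 mM 3-isobutyl-1-methylxanthine and dexamethasone (1 mM as the methods state it) until day 3. The serum changed at induction as well, from bovine calf serum to fetal bovine serum. Insulin and the new serum were thus present in every library of days 1, 3 and 7, and their own effects cannot be told apart from that of time. The study's scheme of the experiment draws ML-792 from day −2 onwards, and the methods give the same start for a viability assay. How long the cells of day −2 had been exposed before harvest is not stated for these cultures. RNA was read from its 3′ end. QuantSeq counts take all reads of a library (total reads), and SLAMseq counts take the reads of the same library with at least 1 T to C conversion (labelled reads), a measure enriched for RNA made during the 4-thiouridine pulse. Sequencing errors give such reads too, and no library without 4-thiouridine was used here to measure that background, so its part in low labelled shares is unknown.

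Insulin and IGF1 bind related receptor tyrosine kinases, encoded by *Insr* and *Igf1r*. The active receptor phosphorylates the adaptors IRS1 and IRS2, which recruit PI 3-kinase through its regulatory subunit p85α, the product of *Pik3r1*, and the lipid made by PI 3-kinase activates the kinase AKT2. In fat and muscle cells AKT2 sends vesicles with the transporter GLUT4, encoded by *Slc2a4*, to the plasma membrane, where it takes up glucose in response to insulin. GLUT1, encoded by *Slc2a1*, is present in most cells and serves basal uptake. Fibroblasts rely on GLUT1, and GLUT4 is a hallmark of the fat cell.

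Sequencing depth ran from 13554718 to 27013352 total reads and from 115709 to 820046 labelled reads per library. Normalized counts are reads scaled by TMM factors to the mean effective library size of 18336656. In DMSO, the summed normalized counts of 7 adipocyte markers were 22260 to 23860 at day −2 and 628100 to 703400 at day 7, whereas those of 6 pre-adipocyte markers were 209200 to 251900 and then 13760 to 20420. Genes with high counts weigh most in such sums, as *Lpl* with a mean of 323800 at day 7 and *Col1a1* with 148400 at day −2. The macrophage markers *Ptprc* and *Adgre1* and the endothelial marker *Cdh5* were at 0 in all DMSO libraries. The other members of these lists were not: *Cd68*, of the macrophage list, had means of 21.6 at day −2 and 108 at day 3 in DMSO (log2 fold change 2.32, adjusted p = 0.00028), *Pecam1*, of the endothelial list, had means of 4.74 to 11.3, and *Kdr* had 0.392 and 0.347 at days 3 and 7. The part of these markers in the results below was not tested. Labelled reads made up 2.71% to 3.68% of the total reads of a library at day −2 in DMSO and 0.926% to 1.08% at day 7. Labelled counts were scaled by the total reads, so that this drop of the whole library stays in them. Replicate letters left a trace in some genes, in that replicate B was the lowest of the 3 libraries in 8 of 8 conditions for *Igf1r*, *Irs1* and *Akt2*.

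All 9 genes passed the filter on low counts in total reads and 7 passed it in labelled reads, where *Irs2* and *Slc2a4* did not. In DMSO every one of the 9 was called in total reads on at least 1 of days 1, 3 and 7 against day −2 (adjusted p under 0.01). This count pools 3 days, and the shares of entries below are for single days, so they are no background for it. At day 1, 4 of 9 were called, beside 13.7% of the 26563 entries tested. The number was 8 of 9 at day 3, beside 30.8% of entries, and 8 of 9 at day 7, beside 32.7%. The entries can hold more than 1 per gene, unlike the members. With 1 entry per gene, 2411, 5014 and 5266 of 13331 genes were called at days 1, 3 and 7. The number at day 7 was 3 of 9 without replicate A and 4 of 9 without replicate C, and that at day 1 was 2 of 9 without replicate A. Between neighbouring days, 4 of 9 differed at day 3 from day 1, beside 18.9% of entries and, with 1 entry per gene, 3220 of 13331 genes. At day 7 against day 3 it was 4 of 9, beside 8.66% of entries and 1536 of 13331 genes. The latter number was 1 of 9 without replicate A and also without replicate C, and the former 6 of 9 with the replicate letter as a block. The 9 genes had a median log2 fold change of -0.10, 1.28 and 0.98 on the 3 later days, where that of all entries tested was 0.02, 0.03 and -0.04. The comparisons with day −2 share its 3 libraries. In these bulk samples fewer cells of a type and less RNA per cell cannot be told apart.

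**Figure D1:**
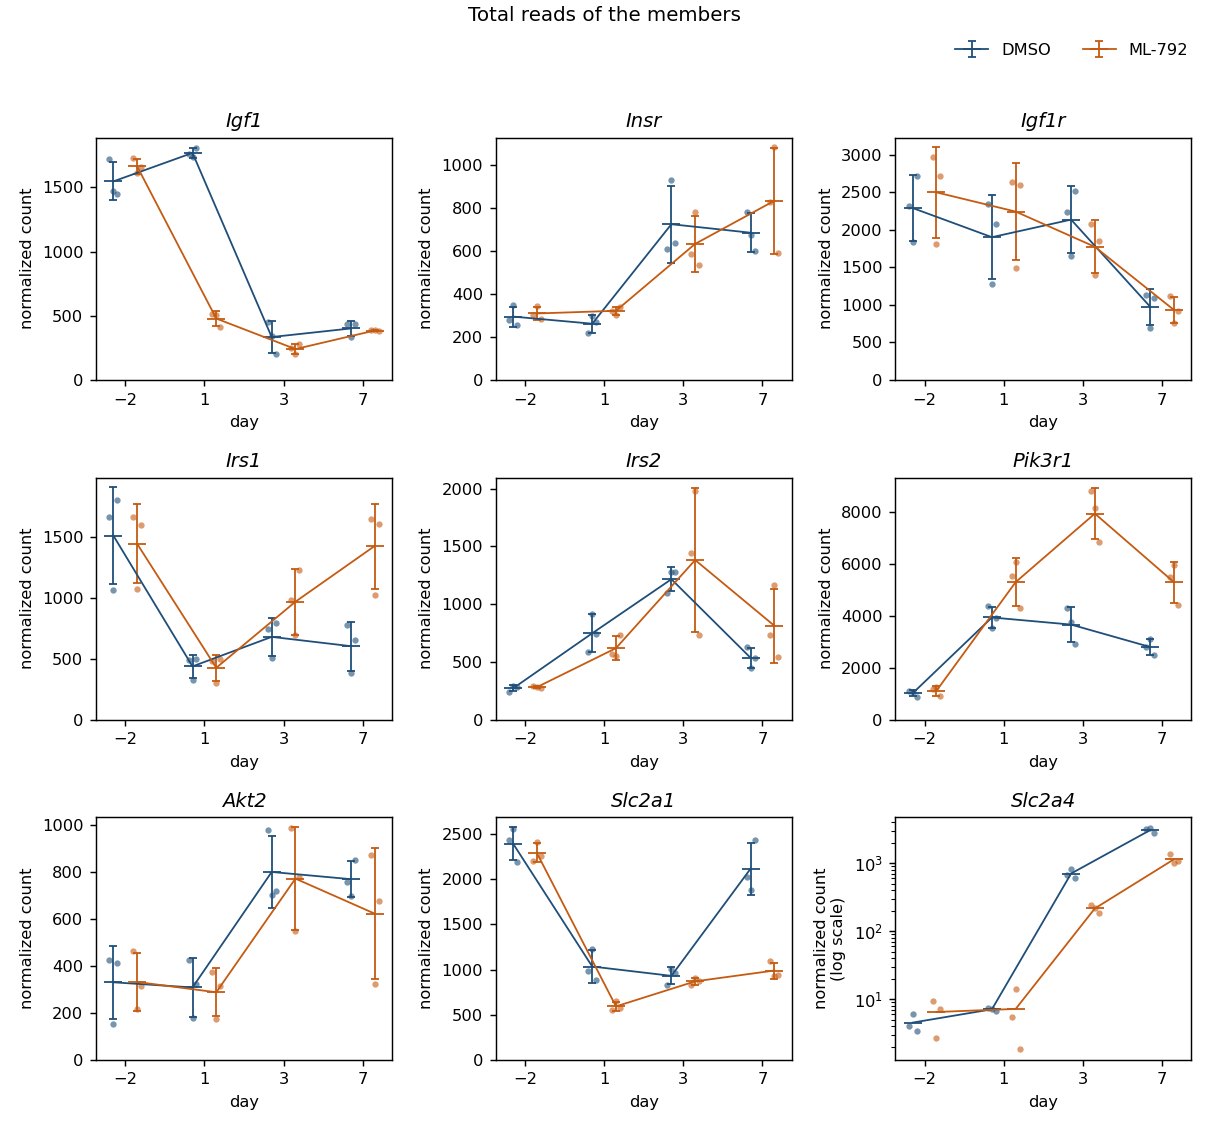
Normalized counts of total reads (y axis, from 0 except for *Slc2a4*, which has a log axis) by day (x axis, days drawn at equal steps) for the 9 genes in DMSO (blue) and ML-792 (orange). Points are the 3 libraries of a condition, horizontal marks their mean and bars ± 1 SD, left out on the log axis. The lines part at day 1 for *Igf1*, from day 3 for *Pik3r1* and *Slc2a4*, at day 7 for *Irs1*, and at days 1 and 7 for *Slc2a1*.

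Against DMSO, ML-792 changed 5 of the 9 genes in total reads on at least 1 day (adjusted p under 0.1). The days are pooled in this count, and the shares of entries below are for single days, so they are no background for it. None of the 9 was called at day −2, where 0% of entries were called by edgeR. At that day DESeq2 called 0 of 9 as well, and 0 of 9 had an unadjusted p under 0.05, as 346 of all entries did. At day 1, *Igf1* and *Slc2a1* fell, 2 of 9 beside 6.45% of entries. At day 3, *Pik3r1* rose and *Slc2a4* fell, 2 of 9 beside 13% of entries. At day 7, *Irs1* and *Pik3r1* rose and *Slc2a1* and *Slc2a4* fell, 4 of 9 beside 9.74% of entries. With 1 entry per gene, 1163, 2249 and 1783 of 13331 genes were called at days 1, 3 and 7. Without replicate A the numbers of members were 1 of 9 at day 1 and 2 of 9 at day 7. At day 3 it was 4 of 9 with the replicate letter as a block. The effect of ML-792 differed between days, by the interaction of day and treatment, for 4 of 9 genes, namely *Igf1*, *Pik3r1*, *Slc2a1* and *Slc2a4*. Beside these stood 9.65% of entries and, with 1 entry per gene, 1755 of 13331 genes. Without replicate A the interaction was called for 1 of 9, and likewise without replicate C. The pre-adipocyte markers moved with the treatment: their sums were 36980 to 42020 under ML-792 and 14430 to 16280 in DMSO at day 3, and 23390 to 29420 and 13760 to 20420 at day 7. At day 1 these sums overlapped, at 107600 to 152100 and 135500 to 139300, but 2 of the 6 markers were called higher, *Ly6a* (1.97, adjusted p = 6.1e-08) and *Thy1* (0.82, adjusted p = 0.0011). The sums of the adipocyte markers at day 1 were 35450 to 41620 under ML-792 and 42530 to 44620 in DMSO, and 2 of 7 were called, both higher, *Fabp4* (1.08, adjusted p = 0.015) and *Plin1* (1.08, adjusted p = 0.024). *Lpl*, which makes up most of these sums, had means of 30270 and 37440 and was not called (-0.31, adjusted p = 0.27). The part of these markers in the changes of the 9 genes was not tested. *Insr*, *Igf1r*, *Irs2* and *Akt2* were called at no day, with log2 fold changes between -0.30 and 0.60.

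**Figure D2:**
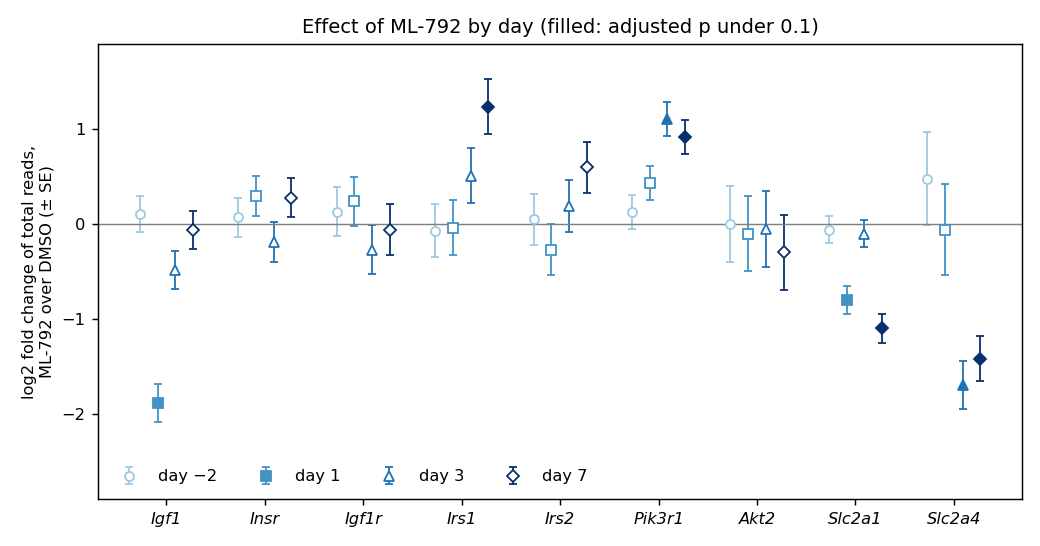
Log2 fold change of total reads, ML-792 over DMSO (y axis, ± SE from the edgeR fit), for the 9 genes (x axis) at days −2, 1, 3 and 7 (circle, square, triangle and diamond). Filled symbols passed an adjusted p of 0.1. *Igf1* at day 1 lies lowest with -1.89, and *Irs1* at day 7 highest with 1.24.

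Promoters are shown for the 4 genes that ML-792 changed and that have an entry in the RefSeq promoter table of GRCm38.p6. The motifs searched include those of the factors that answer to cAMP and to glucocorticoids, which the induction medium raises or mimics. *Igf1r*, *Irs2* and *Akt2* had entries too, 7 of 9 genes in all with 11 windows, and *Insr* and *Slc2a4* had none. Each line gives the 250 bases before a transcription start, 5′ to 3′ in the direction of the gene. Capitals mark, on either strand, the cAMP response motif TGACG, the E-box CACGTG and the GC box GGGCGG.
Igf1, chr10:87860861-87861110, plus strand: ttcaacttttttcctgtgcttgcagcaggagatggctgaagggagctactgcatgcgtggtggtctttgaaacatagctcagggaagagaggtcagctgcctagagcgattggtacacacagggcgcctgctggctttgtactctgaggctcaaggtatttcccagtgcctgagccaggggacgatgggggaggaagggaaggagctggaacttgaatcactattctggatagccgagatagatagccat
Irs1, chr1:82291440-82291689, minus strand: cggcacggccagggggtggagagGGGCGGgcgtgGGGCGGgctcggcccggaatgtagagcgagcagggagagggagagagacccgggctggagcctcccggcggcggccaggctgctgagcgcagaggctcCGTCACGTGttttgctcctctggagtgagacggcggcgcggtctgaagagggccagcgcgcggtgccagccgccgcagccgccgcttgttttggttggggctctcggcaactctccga
Pik3r1, upstream start, chr13:101768218-101768467, minus strand: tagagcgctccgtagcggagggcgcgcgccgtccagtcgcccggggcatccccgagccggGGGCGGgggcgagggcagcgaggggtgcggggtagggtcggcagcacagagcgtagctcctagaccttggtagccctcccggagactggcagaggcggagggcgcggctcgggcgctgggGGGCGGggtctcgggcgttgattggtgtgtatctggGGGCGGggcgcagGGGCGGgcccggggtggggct
Pik3r1, downstream start, chr13:101692631-101692880, minus strand: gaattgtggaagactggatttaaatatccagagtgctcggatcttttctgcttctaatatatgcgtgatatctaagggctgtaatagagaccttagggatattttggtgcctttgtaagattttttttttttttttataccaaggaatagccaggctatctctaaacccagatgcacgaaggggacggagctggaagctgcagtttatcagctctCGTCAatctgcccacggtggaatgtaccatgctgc
Slc2a1, chr4:119108495-119108744, plus strand: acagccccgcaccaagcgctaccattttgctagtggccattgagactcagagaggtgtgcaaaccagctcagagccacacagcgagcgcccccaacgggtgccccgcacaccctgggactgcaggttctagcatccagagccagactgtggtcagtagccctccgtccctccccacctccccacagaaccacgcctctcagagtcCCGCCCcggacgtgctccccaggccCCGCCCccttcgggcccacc
Over all 32851 windows of this length in the table, 17.8% held TGACG, 6.02% held CACGTG and 32.7% held GGGCGG. The *Irs1* window held 1 TGACG that overlaps its 1 CACGTG, and 2 GC boxes. The downstream *Pik3r1* start had 1 TGACG and no GC box, and the upstream start had 4 GC boxes and no TGACG. *Slc2a1* held 2 GC boxes, and *Igf1* held none of these motifs. The glucocorticoid response motif TGTTCT, found in 16.1% of all windows, was in none of the 11 windows. These are matches of letters, and binding was not measured in these libraries.

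*Igf1* encodes insulin-like growth factor 1, a secreted ligand of the IGF1 receptor. Its counted entry is the whole 3′UTR on chromosome 10 (87930701 to 87937047, plus strand, 6347 bases), in the last of 5 exons. In DMSO, replicates A, B and C had 1718, 1475 and 1449 normalized total counts at day −2 and 1759, 1739 and 1808 at day 1. They then had 454, 342 and 205.5 at day 3, and 438, 331 and 433 at day 7. All libraries of days 3 and 7 lay below all those of days −2 and 1, and set against day −2 the log2 fold change came to -2.21 on day 3 (0.24 standard error, SE, adjusted p = 2.1e-06) and to -1.95 on day 7 (SE 0.23, adjusted p = 6e-06). For day 1 it was 0.19 (adjusted p = 0.59). Under ML-792 the 3 libraries of day −2 held 1728, 1611 and 1657 counts. Those of day 1 held 516, 509.5 and 409. *Igf1* was thus 3.7-fold lower than in DMSO at day 1, with no overlap (log2 fold change -1.89, SE 0.20, adjusted p = 8e-07), at a day when DMSO had not fallen below its level of day −2. At day 3 the libraries of both arms overlapped, with a log2 fold change of -0.48 (adjusted p = 0.16), which came to -0.84 with adjusted p = 0.038 without replicate C and was called at -0.46 with adjusted p = 0.072 with the replicate letter as a block. At day 7 the value was -0.06 (adjusted p = 0.93). The effect of ML-792 differed between the days (interaction, adjusted p = 7.7e-05). Ranked by mean, DMSO day 1 came first of the 8 conditions, and the 5 lowest conditions were ML-792 day 1 and all those of days 3 and 7, of which each overlapped the next.

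*Insr* encodes the insulin receptor. Its entry is the whole 3′UTR on chromosome 8 (3150922 to 3155668, minus strand, 4747 bases). In DMSO the libraries A, B and C had 279.5, 347 and 258 normalized total counts at day −2 and 216, 298 and 271 at day 1. They had 609, 930.4 and 636 at day 3 and 781, 673.5 and 602 at day 7. Every library of days 3 and 7 lay above every library of days −2 and 1. Compared with day −2, *Insr* was 2.46-fold higher at day 3 (log2 fold change 1.30, SE 0.21, adjusted p = 0.00015) and 2.33-fold higher at day 7 (1.22, SE 0.21, adjusted p = 0.00024). Without replicate A the rise to day 7 was 1.08 with adjusted p = 0.021. Days 7 and 3 did not differ beyond the spread (-0.08, adjusted p = 0.85). ML-792 left no call: the log2 fold changes against DMSO were 0.07, 0.30, -0.19 and 0.28 at days −2, 1, 3 and 7, with a SE of 0.21 each. At day 1 the 3 ML-792 libraries, with 323, 303 and 339.5, nevertheless all lay above the DMSO libraries (adjusted p = 0.60).

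*Igf1r*, which encodes the receptor of IGF1, was counted on the whole 3′UTR on chromosome 7 (68226402 to 68233668, plus strand, 7267 bases). A second entry of the gene held identical counts. The libraries A, B and C in DMSO had 2320, 1832 and 2716 normalized total counts at day −2, and 1136, 695 and 1087 at day 7. Days 1 and 3 lay between 1278 and 2514 and overlapped day −2. *Igf1r* was 2.35-fold lower at day 7 than at day −2 (log2 fold change -1.23, SE 0.26, adjusted p = 0.001) and fell between days 3 and 7 (-1.13, SE 0.26, adjusted p = 0.0065). The 2 receptor genes thus moved in opposite directions between days −2 and 7, *Insr* up and *Igf1r* down. Without replicate A the change from day −2 was -1.35 with adjusted p = 0.016, and without replicate C -1.18 with adjusted p = 0.02. The fall from day 3 to day 7 had adjusted p = 0.086 without replicate A and 0.087 without replicate C. Under ML-792 the log2 fold changes against DMSO were 0.13, 0.24, -0.27 and -0.06 at days −2, 1, 3 and 7, none called, and the libraries of both arms overlapped at every day. ML-792 day 7 had 1116, 764 and 912 counts.

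*Irs1* encodes insulin receptor substrate 1. The entry covers 4500 bases of the 3′UTR on chromosome 1 (82233105 to 82237604, minus strand), which is the whole second and last exon. In DMSO the libraries A, B and C had 1668, 1063 and 1810 normalized total counts at day −2 and 489.6, 331 and 497 at day 1. They had 745, 506 and 794 at day 3 and 779, 383 and 654 at day 7. All libraries of the later days lay below those of day −2, and B was the lowest at each day. Day 1 differed from day −2 by a log2 fold change of -1.79 (SE 0.28, adjusted p = 0.00027), day 3 by -1.15 (adjusted p = 0.0034) and day 7 by -1.32 (adjusted p = 0.0012). These calls were lost without replicate A or C, with adjusted p = 0.017, 0.048 and 0.015 at days 1, 3 and 7 without A and 0.013, 0.043 and 0.026 without C. From day 1 to day 3 *Irs1* changed by 0.63 without a call (adjusted p = 0.11). That rise was called with the replicate letter as a block (0.63, adjusted p = 0.0014) and without replicate B (0.64, adjusted p = 0.0031), and in no other alternative. Under ML-792, *Irs1* started from the same levels, with 1663, 1076 and 1603 at day −2, and day 1 had 482, 303 and 498. It then had 986, 694 and 1232 at day 3 and 1653, 1025 and 1605 at day 7, which overlaps day −2. At day 7 all ML-792 libraries lay above all DMSO libraries, 2.36-fold higher (log2 fold change 1.24, SE 0.29, adjusted p = 0.0084). Without replicate A the value was 1.34 (adjusted p = 0.15) and without replicate C 1.21 (adjusted p = 0.18). At day 3 the arms overlapped (0.51, adjusted p = 0.35). Replicate B was the lowest in both arms, and day 3 was called without it (0.53, adjusted p = 0.013) and with the replicate letter as a block (0.50, adjusted p = 0.0019). The interaction missed the threshold in the reported edgeR fit (adjusted p = 0.12). It passed without replicate B (adjusted p = 0.00027) and with the block (adjusted p = 7.7e-07). It also passed without the filter (adjusted p = 0.00081), by DESeq2 (adjusted p = 0.047) and with the entries of a gene summed (adjusted p = 0.099). With 1 entry per gene, without replicate A and without replicate C it stayed uncalled.

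*Irs2* encodes insulin receptor substrate 2, an adaptor related to IRS1. Its counted entry on chromosome 8 (10986961 to 10987009, minus strand), is only 49 bases long with 5 T bases, at the start of a 3′UTR that spans 2329 bases (10984681 to 10987009) in GRCm38.p6, so that 2.1% of it was counted. Reads elsewhere in this 3′UTR are not in these counts. The DMSO libraries A, B and C had 241, 291 and 285 normalized total counts at day −2 and 585, 916 and 744 at day 1. Counts were 1097, 1275 and 1275 at day 3 and 627, 449.7 and 532 at day 7. Each later day lay above day −2 without overlap, with log2 fold changes of 1.46 at day 1 (SE 0.20, adjusted p = 6.6e-05), 2.16 on day 3 (adjusted p = 4.5e-07), followed by 0.98 on day 7 (adjusted p = 0.00075). From day 1 to day 3 the libraries did not overlap, but the rise was not called (0.70, adjusted p = 0.012). It was called with the replicate letter as a block (0.71, adjusted p = 0.0038), by DESeq2 (0.69, adjusted p = 0.0046), with summed entries (0.70, adjusted p = 0.0097) and without replicate B (0.83, adjusted p = 0.0016), and in no other alternative. Between days 3 and 7 *Irs2* fell (-1.18, adjusted p = 0.00061). Both calls that involve day 7 were lost without replicate A (adjusted p = 0.048 against day −2 and 0.014 against day 3) and without replicate C (0.018 and 0.034). *Irs1* and *Irs2* thus moved in opposite directions from day −2 in DMSO at each of the 3 later days. Under ML-792 the libraries of *Irs2* were spread widely, with 1439, 1977 and 731 at day 3 and 736, 1165 and 542 at day 7. They overlapped DMSO at all days, and no day was called (0.60 at day 7, SE 0.27, adjusted p = 0.23).

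*Pik3r1* encodes p85α, the regulatory subunit of PI 3-kinase, and shorter forms from a downstream start. The entry, the whole 3′UTR on chromosome 13 (101680761 to 101684879, minus strand, 4119 bases), held 1017 to 8091 reads per library. In DMSO replicates A, B and C had 1108, 1084 and 885 normalized total counts at day −2. The other days had 4380, 3540 and 3906 at day 1, 4298, 3769 and 2936 at day 3, and 2809, 3119 and 2485 at day 7. The rise was called from day 1, at 3.84-fold (log2 fold change 1.94, SE 0.19, adjusted p = 2.2e-06), and remained called at days 3 (1.84, adjusted p = 1e-06) and 7 (1.45, adjusted p = 9.4e-06). With ML-792 the counts were 1178, 1280 and 909 at day −2 and 5526, 6090 and 4297 at day 1. They came to 8802, 8159 and 6865 at day 3 and 5484, 5967 and 4440 at day 7. The 3 ML-792 libraries of day 3 lay above every library of the other conditions and were 2.17-fold above DMSO of that day (1.11, SE 0.18, adjusted p = 0.00013). Day 7 was 1.89-fold above DMSO (0.92, SE 0.18, adjusted p = 0.0017), and was not called without replicate A (0.89, adjusted p = 0.12). Day 1 overlapped and was not called (0.43, adjusted p = 0.23), except with the replicate letter as a block (0.41, adjusted p = 0.017). The interaction had an adjusted p = 0.042, with 0.61 without replicate A and 0.28 without replicate C.

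*Akt2* encodes the AKT kinase that serves insulin-stimulated glucose uptake. Its only entry is the 3′UTR of 1 transcript on chromosome 7 (27638142 to 27639453, plus strand, 1312 bases). The gene runs on to 27640826 in GRCm38.p6, and reads beyond the entry are not in these counts. The DMSO libraries A, B and C had 427, 151 and 413 normalized total counts at day −2 and 424, 176 and 324 at day 1. They had 978, 702 and 719.8 at day 3 and 755, 699.5 and 853 at day 7. Days 3 and 7 lay above days −2 and 1 without overlap, by log2 fold changes from day −2 of 1.28 (SE 0.35, adjusted p = 0.0076) and 1.22 (SE 0.35, adjusted p = 0.0095). These calls lay close to the threshold, and 3 other fits missed it. With all 24 libraries fitted together the adjusted p was 0.013 at day 3 and 0.016 at day 7, without replicate A 0.046 and 0.03, and without replicate C 0.034 and 0.053. The rise from day 1 to day 3 (1.38, adjusted p = 0.0071) was lost in the same fits, at 0.012, 0.045 and 0.059. The arms overlapped at every day and ML-792 gave no call, with log2 fold changes of 0.00, -0.10, -0.05 and -0.30 and a SE of 0.40 each.

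*Slc2a1* encodes GLUT1, the basal glucose transporter. Its entry is the 3′UTR on chromosome 4 (119136447 to 119137330, plus strand, 884 bases). In DMSO its normalized total counts in A, B and C were 2434, 2562 and 2194 at day −2 and 988.6, 1232 and 881.5 at day 1. They were 825, 1006 and 960.5 at day 3 and 2031, 1886 and 2438 at day 7. *Slc2a1* thus fell at day 1 (log2 fold change -1.21, SE 0.17, adjusted p = 0.00012) and day 3 (-1.37, adjusted p = 1.3e-05) and rose again from day 3 to day 7 (1.19, SE 0.18, adjusted p = 0.00024), where it overlapped day −2 (-0.18, adjusted p = 0.43). Without replicate A the fall at day 1 had an adjusted p = 0.026, and the return from day 3 to day 7 had 0.041 without A and 0.015 without C. Under ML-792 the libraries held 2208, 2413 and 2262 at day −2 and 547, 651.5 and 578 at day 1. At day 3 they held 828, 907 and 874, and at day 7 1092, 931 and 945. The ML-792 libraries lay below all DMSO libraries at day 1 (1.75-fold lower, log2 fold change -0.80, SE 0.15, adjusted p = 0.00094) and at day 7 (2.14-fold lower, -1.10, SE 0.15, adjusted p = 1.7e-05). At day 3 the arms overlapped (-0.10, adjusted p = 0.81). Days were not tested against each other within the ML-792 arm. The effect differed between days (interaction, adjusted p = 0.0018), which without replicate A had an adjusted p = 0.18 and without replicate C 0.19. The call at day 1 was lost without replicate A (-0.78, adjusted p = 0.12).

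*Slc2a4* encodes GLUT4, the insulin-responsive transporter of fat and muscle. Its entry is the 3′UTR on chromosome 11 (69942286 to 69943368, minus strand, 1083 bases), in the last of 11 exons. In DMSO at day −2 replicates A, B and C had 5, 7 and 4 reads, or 4.01, 6.17 and 3.48 normalized total counts, and at day 1 each had 8 reads. Day 3 had 679, 834 and 605.5 normalized counts, and day 7 had 3199, 3242 and 2779. Against day −2 the log2 fold change was 7.24 at day 3 (SE 0.26, adjusted p = 4.6e-11) and 9.37 at day 7 (SE 0.27, adjusted p = 4.1e-12), which is 660-fold. With so few reads at day −2 the size of these folds rests on 4 to 7 reads per library. The gene passed the filter on low counts through its libraries of days 3 and 7. The rise from day 3 to day 7 was 4.35-fold (2.12, SE 0.17, adjusted p = 1.1e-06). With ML-792 the libraries held 4 to 11 reads at day −2 and 2 to 12 at day 1. They reached 246, 217 and 187 normalized counts at day 3 and 1372, 996 and 1067 at day 7. *Slc2a4* under ML-792 lay below every DMSO library at day 3 (3.26-fold lower, log2 fold change -1.70, SE 0.25, adjusted p = 3.3e-05) and at day 7 (2.68-fold lower, -1.42, SE 0.24, adjusted p = 0.00033). The interaction, whose earlier days rest on these few reads, had an adjusted p = 0.024, and 0.50 without replicate A and 0.18 without replicate C. Adipocyte markers differed from it by day. At day 3 their summed counts overlapped, at 411400 to 471000 under ML-792 and 374500 to 511500 in DMSO, and 2 of 7 were called, both lower: *Adipoq*, which encodes adiponectin (-0.89, adjusted p = 0.011), and *Lpl*, which encodes lipoprotein lipase (-0.44, adjusted p = 0.041). At day 7 the sums were 859600 to 881500 and 628100 to 703400, and *Adipoq* (0.80, adjusted p = 0.028) and *Fabp4*, which encodes a fatty acid binding protein (0.80, adjusted p = 0.074), were called higher. Of 6 pre-adipocyte markers 5 were called higher at day 3, and at day 7 4 were higher while *Dlk1* was lower (-1.05, adjusted p = 0.014). The part of either list in the *Slc2a4* result was not tested.

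**Figure D3:**
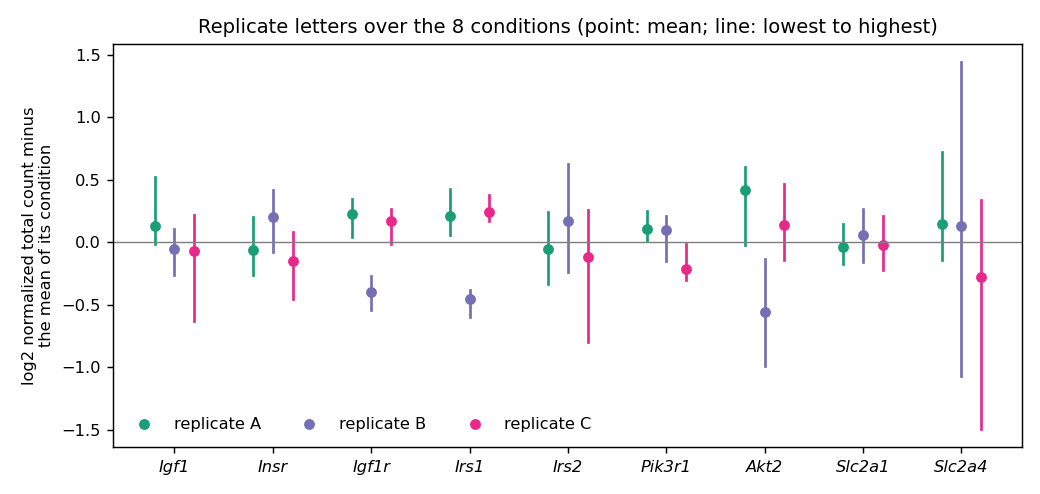
Log2 normalized total count of each library minus the mean of its condition (y axis), for replicates A, B and C (green, purple and pink) of the 9 genes (x axis). Points are means over the 8 conditions and lines run from the lowest to the highest condition. Replicate B lay below its condition's mean in all conditions for *Igf1r* (mean -0.40), *Irs1* (-0.45) and *Akt2* (-0.56), and the wide lines of *Slc2a4* come from the days with few reads.

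In labelled reads, 4 of the 7 genes tested were called over the DMSO time course, all of them lower. That count pools the days, whereas the shares of entries below are for single days. At day 1, 3 of 7 were called, beside 18.5% of the 10589 entries tested. At day 3 it was 3 of 7, beside 32.6%, and at day 7 4 of 7, beside 29.4%. With 1 entry per gene, 1207, 2107 and 1910 of 6434 genes were called at days 1, 3 and 7. Among all called entries 96.8%, 94.3% and 94.1% were lower at days 1, 3 and 7, and the median log2 fold change of all entries was -1.23, -1.65 and -1.51, as the labelled share of the whole library fell. Scaled instead by the labelled reads of each library, 66.0%, 58.3% and 60.2% of called entries were lower, with medians of -0.23, -0.45 and -0.39. The changes of the members are to be read against these medians.

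*Irs1* and *Slc2a1* fell in labelled reads by more than the median entry. The normalized labelled counts of *Irs1* in A, B and C in DMSO were 196, 89.0 and 175 at day −2, and 21.5, 21.6 and 23.6 at day 1. They were 29.8, 9.41 and 24.3 at day 3 and 23.6, 17.7 and 13.7 at day 7. None of the later libraries overlapped day −2, with log2 fold changes of -2.78, -2.85 and -3.06 (adjusted p = 4e-06, 1.9e-06 and 5.6e-07). Scaled by labelled reads they were -1.74, -1.64 and -1.89, all still called (adjusted p = 0.0029, 0.0036 and 0.00078). For *Slc2a1* the labelled counts were 145, 131 and 131 at day −2, and 17.8, 25.2 and 16.0 at day 1. They were 11.0, 12.9 and 21.9 at day 3 and 34.8, 23.9 and 36.4 at day 7. The changes were -2.78, -3.15 and -2.10 (adjusted p = 2.3e-06, 2.1e-07 and 9.5e-05), and -1.79, -1.97 and -0.99 when scaled by labelled reads, of which that of day 7 was not called (adjusted p = 0.08).

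*Igf1r* had 71.3, 76.7 and 92.3 normalized labelled counts at day −2 and 16.9, 4.16 and 29.6 at day 7 in DMSO, a log2 fold change of -2.25 (adjusted p = 0.00033). At days 1 and 3 its changes were -1.62 (adjusted p = 0.0079) and -1.53 (adjusted p = 0.008), close to the median of all entries. Both were lost without replicate A (adjusted p = 0.083 and 0.051), without replicate C (0.051 and 0.042) and without the filter (0.011 and 0.013), and that of day 3 without replicate B (0.016). Scaled by labelled reads, *Igf1r* was called at no day, with -0.65, -0.37 and -1.17. *Igf1* had 41, 24 and 20 labelled reads at day −2 and 1, 0 and 2 at day 7 (-4.28, SE 0.95, adjusted p = 3e-04), and the change was not called without replicate A (-3.98, adjusted p = 0.026) or when scaled by labelled reads (-3.19, adjusted p = 0.014). The labelled counts of *Pik3r1* were 104, 96.9 and 58.3 at day −2 and 119, 102 and 130.5 at day 1. They were 80.5, 89.4 and 81.5 at day 3 and 50.6, 65.6 and 54.6 at day 7. Its log2 fold changes were 0.44, -0.05 and -0.60, above the median of all entries, and were not called. When scaled by labelled reads they were 1.42, 1.14 and 0.52, of which that of day 1 was called (adjusted p = 0.0033).

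**Figure D4:**
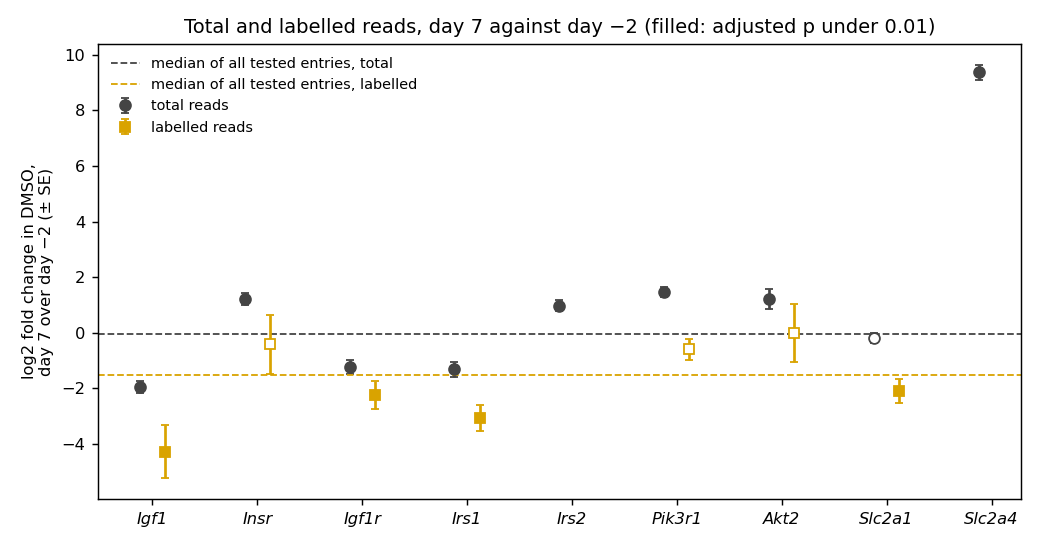
Log2 fold change in DMSO, day 7 over day −2 (y axis, ± SE from the edgeR fit), in total reads (grey circles) and labelled reads (yellow squares) of each gene (x axis). Filled symbols passed an adjusted p of 0.01, dashed lines are the medians of all tested entries (-0.04 and -1.51), and *Irs2* and *Slc2a4* have no labelled value since they did not pass the filter. *Pik3r1* (1.45 and -0.60), *Insr* (1.22 and -0.42) and *Akt2* (1.22 and -0.02) lay above both medians.

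Few labelled reads fell on *Insr*, *Akt2*, *Irs2* and *Slc2a4*, with at most 19, 14, 17 and 12 in a library. *Insr* and *Akt2* passed the filter but had SEs near 1 on the log2 scale, and a change like those in their total reads was not detectable at this depth. *Slc2a4* had 0 labelled reads in every library of days −2 and 1. In DMSO these 0 labelled reads stood beside 16 total reads at day −2 and 24 at day 1, which allows a share of up to 18.8% and 12.5%. At day 3 A, B and C had 4, 0 and 5 labelled reads and at day 7 6, 12 and 5, or 23 of 8404 reads. Under ML-792 there were 0, 1 and 0 at day 3 and 7, 4 and 6 at day 7. The labelled libraries of *Slc2a4* overlapped between arms at day 7, whereas the total reads did not. These limits cover counting error only, since reads were not tied to single molecules.

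ML-792 changed the labelled reads of 1 of the 7 genes tested, and at day 7 only. The background share was 0% at day −2, and 0.822%, 0.935% and 0.869% on the 3 later days. With 1 entry per gene, 83, 85 and 64 of 6434 genes were called on those later days. By edgeR 0 of 7 were called at days −2, 1 and 3. An unadjusted p under 0.05 was found for 0, 2 and 1 genes on these days, and DESeq2 called 0, 0 and 1. Of all called entries 83.9%, 61.6% and 93.5% were lower at days 1, 3 and 7, and 55.8%, 60.0% and 66.7% when scaled by labelled reads. *Slc2a1* at day 7 had 7.37, 7.61 and 8.15 normalized labelled counts (6 reads in each library) with ML-792 and 34.8, 23.9 and 36.4 with DMSO, a log2 fold change of -2.02 (SE 0.49, adjusted p = 0.026). The median of all entries was -0.36 at that day, and with labelled scaling the change was -1.76 (adjusted p = 0.088). The call was lost without replicate A (adjusted p = 0.34) and without replicate C (adjusted p = 0.38). At day 1 its 2.20, 10.7 and 10.3 labelled counts also lay below all DMSO libraries and were not called (-1.32, adjusted p = 0.23). *Igf1* at day 1 had 2.20, 3.58 and 3.75 with ML-792 and 9.36, 17.1 and 5.89 with DMSO, without overlap and without a call (-1.72, adjusted p = 0.42). *Pik3r1* at day 3 had 166, 175 and 122 with ML-792 and 80.5, 89.4 and 81.5 with DMSO, a difference of 0.88 (SE 0.34, adjusted p = 0.30) that DESeq2 called (adjusted p = 0.081). *Irs1* at day 7 had 54.0, 43.1 and 20.4 with ML-792 and 23.6, 17.7 and 13.7 with DMSO (1.10, SE 0.44, adjusted p = 0.32), with overlap. On these days the uncalled labelled difference had the sign of the called total difference in these 3 genes. At day 7, where its total reads were not called, *Igf1* had a labelled value of 2.19 (adjusted p = 0.41) from 0 to 8 reads per library. The interaction in labelled reads was called by edgeR for 0 of 7 genes, beside 0.236% of entries. DESeq2 also called 0 of 7, and 3 of 7 had an unadjusted p under 0.05.

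**Figure D5:**
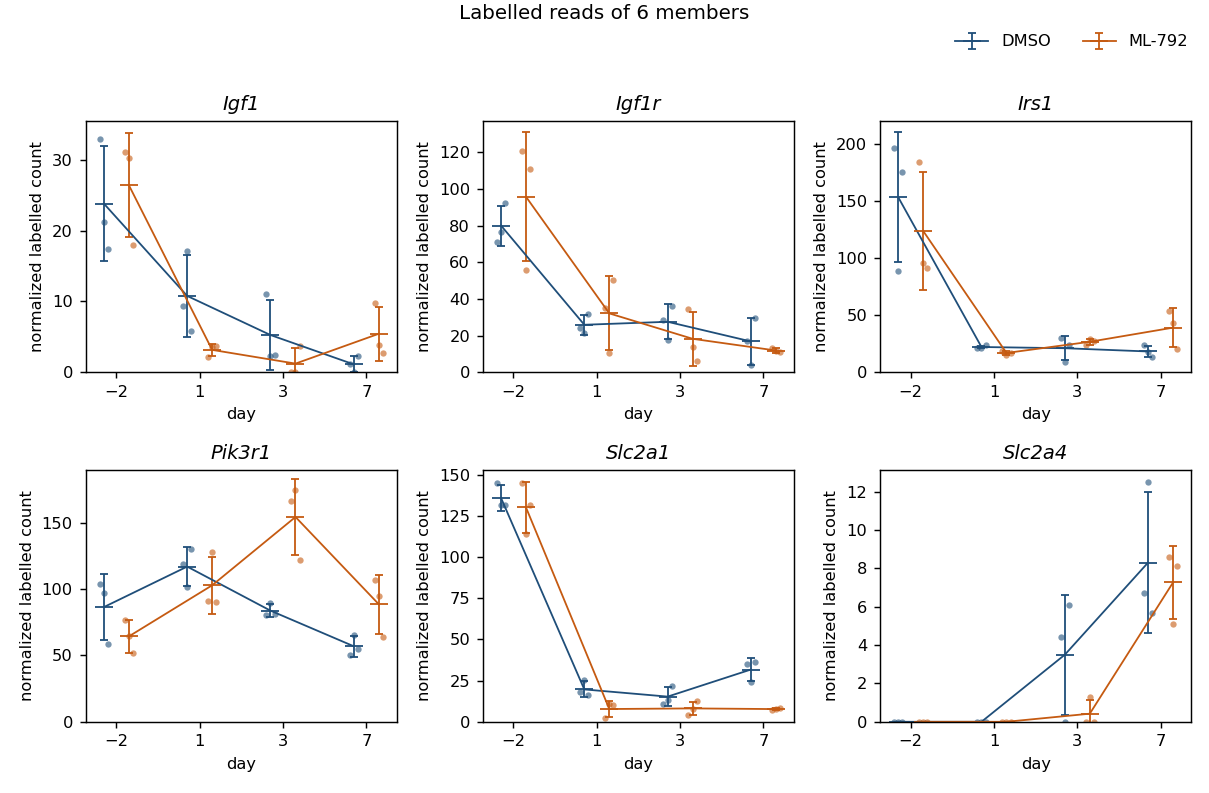
Normalized counts of labelled reads (y axis, from 0) by day (x axis, days drawn at equal steps) for 6 of the 9 genes in DMSO (blue) and ML-792 (orange). Points are the 3 libraries of a condition, horizontal marks their mean and bars ± 1 SD. *Irs1* and *Slc2a1* drop between days −2 and 1 in both arms, and *Pik3r1* under ML-792 is highest at day 3.

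The share of labelled among total reads of a gene depends on how much of its RNA is new and on the T bases its reads span, so it is compared here between days and not between genes. In DMSO the share of *Irs1* was 9.93% ± 1.71 at day −2 and then 5.22% ± 1.14, 2.97% ± 1.07 and 3.25% ± 1.28 on days 1, 3 and 7 (SD, n = 3). For *Pik3r1* it was 8.31% ± 1.51, 2.98% ± 0.326, 2.34% ± 0.452 and 2.03% ± 0.207 on the same days. *Slc2a1* had 5.69% ± 0.49, 1.89% ± 0.137, 1.63% ± 0.559 and 1.49% ± 0.223, and *Igf1r* 3.55% ± 0.572, 1.42% ± 0.341, 1.27% ± 0.191 and 1.60% ± 1.07. All 4 thus had their highest share at day −2, as the whole library did. Under ML-792 at day 7 the share of *Slc2a1* was 0.785% ± 0.0978, with all 3 libraries below those of DMSO. The share of the whole library was also lower without overlap, at 0.802% to 0.860% against 0.926% to 1.08%. The share of *Irs1*, 2.92% ± 1.501, overlapped DMSO.

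Other genes of the pathway were taken from a list of 69 symbols grouped by role, of which 68 were in the tables, *Trarg1* being listed under its older symbol *Tusc5*, and 64 passed the filter in total reads. In DMSO at day 7 against day −2, 15 rose and 12 fell of 64, which is 42.2% beside the 32.7% of all entries called, with a median log2 fold change of 0.03 beside -0.04. Each of the 64 genes is counted on 1 entry. With 1 entry per gene, 5266 of 13331 genes were called, a higher share than that of all entries and nearer to that of the 64. The shares called by role ran from 25.0% to 54.5%, in groups of 4 to 12 genes. The lowest was that of the kinase group, which holds genes of PI 3-kinase, AKT and mTOR with their regulatory subunits. The highest were those of the inhibitors and of the targets of AKT and mTOR. Of 11 inhibitors of the pathway 1 rose and 5 fell, with a median of -0.89. Those that fell include *Socs1* (-2.94, adjusted p = 2e-06), which encodes a suppressor of cytokine signaling that acts on IRS proteins, and *Grb14* (-3.12, adjusted p = 6.4e-05), which encodes an adaptor that binds and inhibits the insulin receptor. Of 8 other adaptors 3 rose and 1 fell. *Irs3*, an adaptor gene of rodent fat cells, rose from 0 reads at day −2 to 11.2 ± 5.06 normalized counts, at least 4.4-fold against a floor of 3 reads per library (adjusted p = 0.0088). It is 1 of the 3 adaptors that rose. Its DMSO means were 0 at day 1 and 1.57 at day 3, and its highest mean was 14.4, under ML-792 at day 3. It thus passed the filter only through conditions where it was high, and its call adds no independent support. Of 11 genes of GLUT4 vesicle traffic 2 rose and 1 fell, with *Tusc5*, which encodes a protein of GLUT4 vesicles, going from 28.6 ± 9.72 to 1700 ± 678 counts (5.88, adjusted p = 6.6e-09). Of 11 targets of AKT and mTOR 5 rose and 1 fell, led by the phosphodiesterase gene *Pde3b* (5.80, adjusted p = 2.8e-10). Of 12 genes of the kinase group 1 rose and 2 fell, and the PI 3-kinase gene *Pik3cd* was among those that fell (-4.30, adjusted p = 0.00049). Of 7 ligands, their receptors and binding proteins 2 rose and 1 fell, and of 4 other transporters and hexokinases 1 rose and 1 fell.

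With ML-792 against DMSO, 3 of these 64 genes rose and 6 fell at day 1, 7 rose and 6 fell at day 3, and 9 rose and 6 fell at day 7, with medians of -0.01, -0.08 and -0.01. These are 14.1%, 20.3% and 23.4% of the 64, beside 6.45%, 13% and 9.74% of all entries. With 1 entry per gene, 1163, 2249 and 1783 of 13331 genes were called on these days. By role at day 7, 3 of 11 inhibitors rose and 2 fell, and 2 of 11 vesicle genes rose and 1 fell. In the kinase group 0 of 12 genes rose and 1 fell, a share of 8.33%. *Trib3*, which encodes a pseudokinase that binds AKT, was at 742 ± 180.6 counts against 5776 ± 732 in DMSO (-2.96, adjusted p = 3.1e-09). The growth factor gene *Igf2* was at 956 ± 239 against 3922 ± 749.7 (-2.04, adjusted p = 1.9e-05) and *Tusc5* at 436 ± 193 against 1700 ± 678 (-1.96, adjusted p = 0.0015). The highest rises were those of *Socs3* (1.54, adjusted p = 0.0091), *Lnpep*, the gene of an aminopeptidase of GLUT4 vesicles (1.07, adjusted p = 0.023), and *Socs1* (1.06, adjusted p = 0.038). *Slc2a4* and *Tusc5*, whose products share a vesicle, were thus both lower at day 7, and *Lnpep*, of the same vesicle, was higher.

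Over the 24 libraries the genes whose log2 counts were most like those of a member were looked up among 10351 genes, as a description in which all points share libraries and days. For *Slc2a4* they were *Nat8l* (Pearson r = 0.993), *Adig* (0.989) and *Mrap* (0.988). For *Irs1* they were *Fosb* (0.937), *Hip1* (0.91) and *Tmem150a* (0.899), and for *Slc2a1* *Ddit3* (0.923), *March8* (0.921) and *Prkcd* (0.914). The nearest for *Igf1* was *Ppp1r2* (0.938), for *Insr* *Txndc15* (0.955), for *Igf1r* *Crkl* (0.895), for *Irs2* *Psmd3* (0.921), for *Pik3r1* *Exosc6* (0.946) and for *Akt2* *Jarid2* (0.936).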

How the data were processed

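The authors sequenced 3′ end libraries of 24 samples and deposited, for each RefSeq 3′UTR entry of mm10, counts of all reads and counts of reads with at least 1 T to C conversion, made with SlamDunk. The submitters' processing notes name bcl2fastq 2.17.1.14. Of the library columns, 6 per table matched no sample and were not used. Both kinds of count were tested with the quasi-likelihood test of edgeR 4.0.16 (robust, limma 3.58.1, R 4.3.3) after filterByExpr (minimum count 10, minimum total 15) and TMM scaling from total reads, which left 26563 and 10589 entries. The DMSO days were fitted on the DMSO libraries, and ML-792 and its interaction with day on all 24. Benjamini-Hochberg adjusted p ran over all entries, with thresholds of 0.01 for days and 0.1 for ML-792 and the interaction. Standard errors are from the same fits. The neighbour search used log2 normalized counts with a prior count of 2 and genes with a mean of at least 50. Figures were drawn with matplotlib 3.10.9 in Python 3.11.15.

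All 9 genes are named. From the pathway list, the 3 top and 3 bottom log2 fold changes among called genes were named, at day 7 in DMSO and under ML-792. The members and lists were chosen with earlier results of these data known. On simulated data for DMSO day 7 against day −2, 37% and 95% of changes of 1 and 2 on the log2 scale were recovered in total reads over 13331 genes. In labelled reads it was 14% and 64% over 6434 genes. The simulation set the same spread for all genes, no effect of the replicate letter and 100 changed genes of each size. With 1 entry per gene the real comparison called 5266 and 1910 genes, so these rates are not the power of the reported fits. The alternatives were DESeq2 1.42.0, no filter, 1 entry per gene, summed entries, other sets of libraries in the fit, labelled scaling, the replicate letter as a block and leaving out each letter. Libraries of 1 cell line make up the replicates, so p-values measure the spread between these cultures.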

Additional observations from a re-analysis of the deposited data

Results flagged for a closer look

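The effect of ML-792 on total reads differed between days for 4 of the 9 genes, by the interaction of day and treatment in edgeR. The adjusted p was 7.7e-05 for *Igf1*, which was lower at day 1 (-1.89) and near DMSO at day 7 (-0.06). It was 0.0018 for *Slc2a1*, lower at days 1 (-0.80) and 7 (-1.10) and near DMSO at day 3 (-0.10). It was 0.024 for *Slc2a4*, lower at days 3 (-1.70) and 7 (-1.42), and 0.042 for *Pik3r1*, higher at days 3 (1.11) and 7 (0.92). Without replicate A, and likewise without replicate C, 1 of these 4 calls was left.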

How the results depend on the processing

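Of 51 member calls, none changed direction under any alternative run. Of 1354 alternative values, 1284 kept their side of the threshold, 52 lost a call and 18 gained one. These values cover 146 comparisons, of which only 51 were called, so that many of the 1284 are comparisons that stayed uncalled. In total reads, leaving out A lost 13 calls over DMSO days and 6 under ML-792 or the interaction. Leaving out C lost 11 and 4. Uncalled values changed sign in 33 cases. Over the runs that leave out 1 replicate letter, the members called between neighbouring DMSO days numbered 3 to 8 (7 with all libraries), the interaction in total reads 1 to 5 (4 with all libraries) and ML-792 in labelled reads 0 to 1. DESeq2 called 2 members in labelled reads under ML-792. Counted over all days together, the members called numbered 6 to 9 of 9 in DMSO in total reads, 3 to 4 in labelled reads, and 4 to 5 under ML-792 in total reads. Counts pooled over days or comparisons have no share of all entries beside them. Counts at single days moved more: against day −2, 2 to 4 of 9 were called at day 1, 6 to 8 at day 3 and 3 to 8 at day 7, and under ML-792 1 to 2 at day 1, 2 to 3 at day 3 and 2 to 4 at day 7. The libraries without A or C leave 2 per condition, and the fit assumes that they vary like the rest.

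With the replicate block, 9 members were called over DMSO days, 8 between neighbouring days, 5 under ML-792 and 5 for the interaction in total reads, and 4, 1 and 0 in labelled reads over DMSO days, under ML-792 and for the interaction. Same-letter libraries deviated together on average in total reads (mean correlation 0.213, other letters -0.104), with 70 of 84 pairs over 0.1. Deviations were taken from the mean of each condition, so those of its letters cancel. The negative means for other letters follow from this centring and are no separate evidence. The lowest of the same-letter pairs was -0.124. In labelled reads the mean was 0.0713 for the same letter and -0.0355 for other letters. The lowest same-letter pair there was -0.016, and 23 of 84 were over 0.1. The letters were not taken as pairs in the reported fits, so what they share stays in the spread of those fits. The calls with the block are therefore given beside them. Depth limits the labelled reads of *Insr*, *Akt2*, *Irs2* and *Slc2a4*, and few reads limit *Slc2a4* at days −2 and 1.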

Other observations

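*Tusc5*, of the pathway list, was followed over all days after its values were seen. Its mean normalized total counts in DMSO were 28.6, 25.7, 102 and 1700 at days −2, 1, 3 and 7, and 29.5, 178, 419 and 436 with ML-792. ML-792 raised it at day 1 (2.79, adjusted p = 0.00019) and day 3 (2.04, adjusted p = 0.001) and lowered it at day 7 (-1.96, adjusted p = 0.0015), and the effect differed between days (edgeR interaction, adjusted p = 1.7e-05). *Foxo1*, which encodes a transcription factor that AKT restrains, was also chosen after its values were seen. Its mean counts in DMSO were 355, 751, 1636 and 2137 on the same days, and 401, 1566, 3693 and 2832 with ML-792. It was higher under ML-792 at day 1 (1.06, adjusted p = 4.3e-05) and day 3 (1.17, adjusted p = 5.3e-06).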
